A study of Salmo salar with 6 samples.

Results

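The expression of 7 genes of fat use and fat storage was followed in Atlantic salmon head kidney, the fish organ that forms blood cells, holds immune tissue and secretes steroid and catecholamine hormones. They were chosen by name and role, with earlier results of these data known. Of them, 3 act in fatty acid oxidation (acsl1a, acaa2 and cpt1ab) and 4 in fat synthesis and storage (fabp4, thrsp, cidea and cidec). They are 7 of 25460 genes that could be named or numbered on the array, and their 8 probes are 8 of 42386. All 7 could be tested, among 15509 genes tested in all. The samples were 3 RNA pools from fish fed a diet with 0.1% MPLE, an additive from sage and lemon verbena that contains ursolic acid, verbascoside and polyphenols, and 3 RNA pools from control fish fed the basal diet with 0% MPLE. The fish were unvaccinated juveniles of 252 g, fed for 133 days, with 6 fish in a pool and 18 per diet. All fish of both diets had been treated with hydrogen peroxide and formaldehyde on arrival. Pooling averages the fish, so differences between individual fish were not measured. In such bulk samples, fewer cells of a type and less RNA per cell cannot be told apart.

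Fatty acids enter oxidation as acyl-CoA. Long-chain acyl-CoA synthetases such as acsl1a make this activated form, and carnitine palmitoyltransferase 1, encoded by cpt1ab among other genes, passes the acyl group to carnitine at the outer mitochondrial membrane, the step that controls entry to the mitochondrion. The chain is then shortened by repeated cycles, and acaa2, the mitochondrial 3-ketoacyl-CoA thiolase, performs the last reaction of each cycle. Fat that is not burned is stored as triglyceride in lipid droplets. In mammals, fabp4 is a fatty acid carrier of adipocytes and macrophages, thrsp is a nuclear protein tied to lipogenesis, and cidea and cidec sit on droplets and promote their growth by fusion.

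No member passed the test at an adjusted p under 0.05 (0 of 7 genes, limma with Benjamini-Hochberg adjustment), against 0.342% of the 23132 probes tested (0.303% higher and 0.0389% lower). With array weights in the limma fit 2 members passed, acaa2 and cidea, among 2048 probes that passed in all. At an unadjusted p under 0.05 stood 4 members, acsl1a, acaa2, cpt1ab and cidea, while 17.7% of all probes did (11.5% higher and 6.24% lower). The members were chosen with earlier results of these data known, so their count cannot be read as an excess over that share. Signals are log2 values relative to the 75th percentile of each array, so 0 is the level of that percentile and 1 unit is a doubling. Levels of different genes are not comparable on this scale, because each probe binds in its own way. With 3 pools on a side, the interval of each difference is wide. The tanks behind each pool are not named in the labels, so tank effects and diet effects cannot be told apart.

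**Figure D1:**
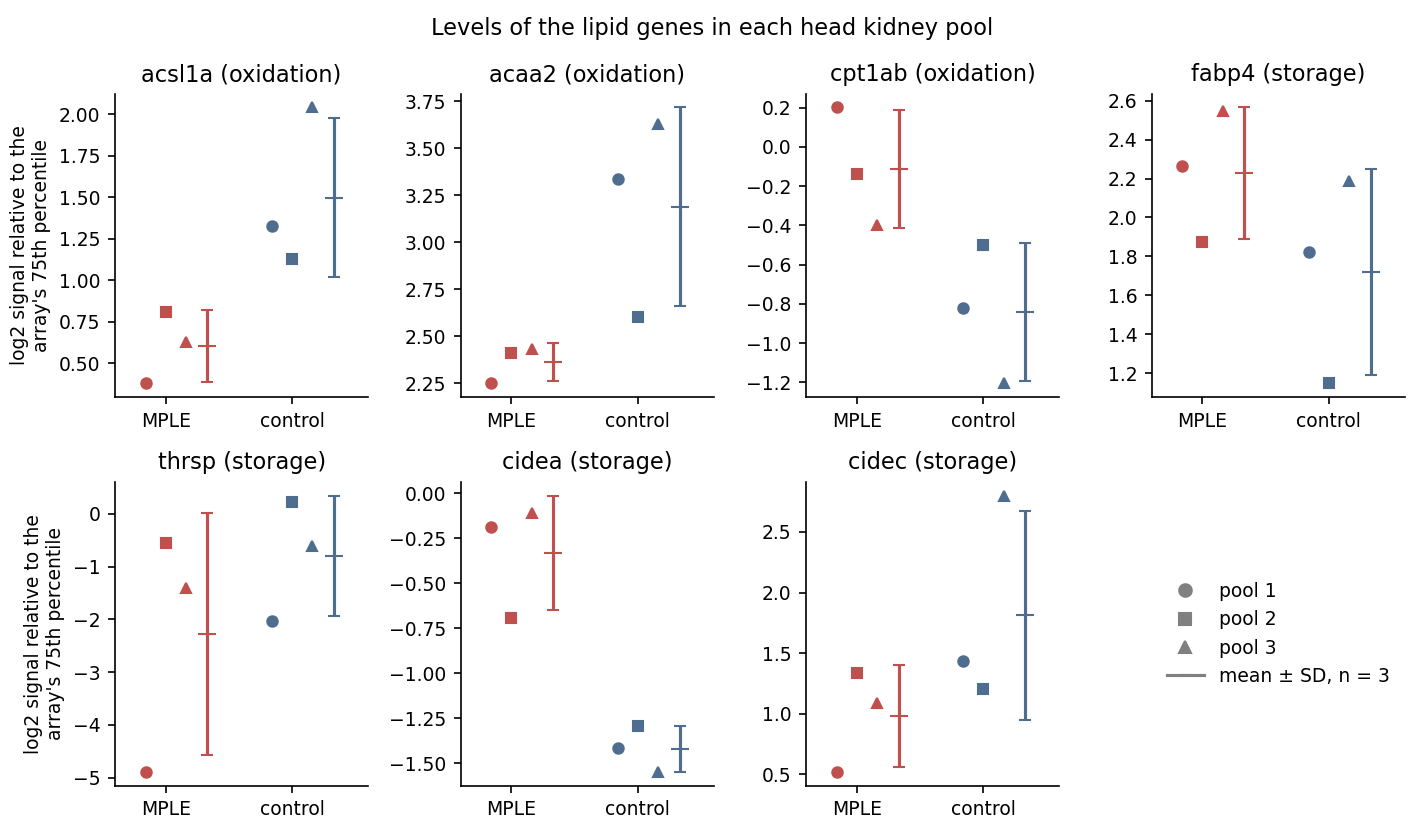
Log2 signal relative to the 75th percentile of each array (vertical axes) of the 7 genes, MPLE pools left and control pools right in each panel, with points for single pools and bars for the mean and SD (n = 3 pools). Acsl1a and acaa2 lie wholly lower in MPLE pools, cpt1ab and cidea wholly higher, and fabp4, thrsp and cidec overlap.

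Among the oxidation genes, acsl1a was at 0.38, 0.81 and 0.63 in the MPLE pools, against 1.33, 1.13 and 2.04 in the control pools. Every MPLE pool was below every control pool, with control pool 3 the highest. The difference was -0.89 ± 0.31 (SE), which is 1.86-fold lower, with a 95% interval from -1.63 to -0.16 and an adjusted p of 0.215 by limma. These values are from the brighter of the 2 probes of acsl1a. The dimmer probe, which matched another transcript of the gene, gave -2.36, -1.96 and -2.03 in MPLE pools and -2.11 and -2.05 in control pools 1 and 3, with the spot of control pool 2 left out as an outlier. Its difference was -0.04, with a 95% interval from -0.72 to 0.64 and an adjusted p of 0.947 by limma, so the 2 probes gave different values for the gene. The mean of both gave -0.56, without control pool 2, where the dimmer probe had no value.

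Acaa2 was at 2.25, 2.41 and 2.43 in the MPLE pools, against 3.34, 2.60 and 3.63 in the control pools. All MPLE pools were below all control pools, and the MPLE pools lay close together (mean 2.36 ± 0.10, against 3.19 ± 0.53 in control, SD, n = 3 each). The difference was -0.82 ± 0.31 (SE), or 1.77-fold lower, with a 95% interval from -1.57 to -0.08 and an adjusted p of 0.248 by limma.

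Cpt1ab ran the opposite way, at 0.20, -0.14 and -0.40 in the MPLE pools, against -0.82, -0.50 and -1.21 in the control pools. The lowest MPLE pool was above the highest control pool. The difference was 0.73 ± 0.29 (SE), or 1.66-fold higher, with a 95% interval from 0.04 to 1.42 and an adjusted p of 0.262 by limma. Together with cidea, described next, 2 members lay wholly higher and 2 wholly lower in MPLE pools, and 29.2% of all probes had no overlap (16.5% higher and 12.7% lower). Since earlier results were known when the members were chosen, this count too cannot be read as an excess.

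Of the storage genes, cidea showed the smallest p of the 7. It was at -0.19, -0.69 and -0.11 in the MPLE pools, against -1.42, -1.29 and -1.55 in the control pools. The control pools lay within a narrow band and every MPLE pool was above it. The difference was 1.09 ± 0.26 (SE), or 2.13-fold higher, with a 95% interval from 0.48 to 1.70 and an adjusted p of 0.112 by limma. Of all probes tested, 3.49% had a smaller p and 9.92% a larger positive change.

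Cidec, the other droplet protein of the family, did not follow it. It was at 0.52, 1.33 and 1.09 in the MPLE pools, against 1.44, 1.20 and 2.80 in the control pools. MPLE pool 2 was above control pool 2, and control pool 3 stood far above the rest. The difference was -0.83 ± 0.47 (SE), with a 95% interval from -1.94 to 0.28 and an adjusted p of 0.381 by limma. Without control pool 3 it was -0.34.

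Fabp4 was at 2.26, 1.87 and 2.55 in the MPLE pools, against 1.82, 1.15 and 2.19 in the control pools. The diets overlapped, and the difference was 0.51 ± 0.34 (SE), with a 95% interval from -0.31 to 1.32 and an adjusted p of 0.448 by limma. Without control pool 2 it was 0.22.

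Thrsp varied most within a diet. It was at -4.89, -0.55 and -1.40 in the MPLE pools, against -2.03, 0.23 and -0.60 in the control pools. The spot was not well above background in MPLE pool 1, so 2 of 3 MPLE pools measured it. The difference was -1.48 ± 1.14 (SE), with a 95% interval from -4.19 to 1.23 and an adjusted p of 0.497 by limma. Without MPLE pool 1 it was -0.17. Some markers of liver moved with thrsp. Of 11 tested liver-type genes, 7 were lowest in MPLE pool 1, as thrsp was, and 6 of those were also highest in control pool 2, as thrsp was, against 23.4% and 1.18% of all genes. Among them hpxb, a hemopexin, was at -5.97, -2.08 and -2.67 in the MPLE pools, against -3.38, -0.88 and -1.83 in the control pools. Hpxb, hpxa and fgg were above background on 2 of 3 MPLE arrays, so their lowest values are not well measured. Other liver-type genes did not follow: tfa was lowest in control pool 2 (4.21), and hp and antithrombin did not show the pattern. Apoba, a defining liver gene, was above background on no array, and the part of liver-type RNA in the values of thrsp was not tested.

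**Figure D2:**
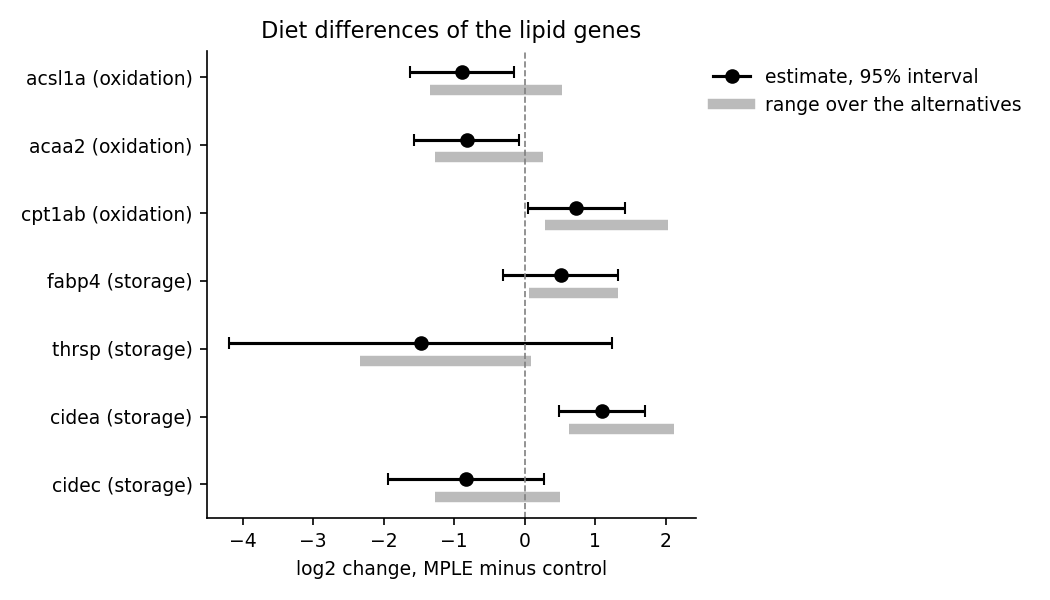
Difference between MPLE and control in log2 units (horizontal axis) for each gene, with the 95% interval from limma (n = 3 pools per diet) in black and the range over the processing alternatives as a grey bar. The intervals of acsl1a and acaa2 lie below 0 and those of cpt1ab and cidea above it, before any adjustment over probes, those of fabp4, thrsp and cidec span 0, and the grey bars of cpt1ab, fabp4 and cidea stay above 0.

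Log2 ratios of members on the same array do not change when a constant is added to all values of an array. They do depend on how background and position on the array are corrected, and were tested on the processed signals only. All 9 pairs of members with the same role were compared by an exact permutation test, two-sided, for which 3 against 3 pools allow no p under 0.1. That p of 0.1 was reached by 4 pairs and is 0.225 after Benjamini-Hochberg adjustment over the 9 exact tests. For acsl1a and acaa2 against cpt1ab this outcome was fixed in advance. Both lay wholly lower and cpt1ab wholly higher in MPLE pools, so their ratios had to separate and add no further evidence. The log2 ratio of acsl1a to cpt1ab was 0.18 to 1.03 in MPLE pools, against 1.63 to 3.25 in control pools, a difference of -1.62. The ratio of acaa2 to cpt1ab was 2.05 to 2.83 in MPLE pools, against 3.1 to 4.83 in control pools, a difference of -1.55. These 2 separations hold on the processed signals and restate the single-gene levels. After another background correction without detrending (normexp, described below), the ratio of acaa2 to cpt1ab overlapped, while that of acsl1a to cpt1ab did not. There acaa2 and cpt1ab were at 2.13 and -0.40 in MPLE pool 3, against 2.10 and -0.30 in control pool 2. The ratio of acsl1a to acaa2 was -1.87 to -1.60 in MPLE pools, against -2.01 to -1.47 in control pools, a difference of -0.07 with an exact p of 0.8.

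Among the storage genes, the log2 ratio of cidea to cidec was -2.03 to -0.71 in MPLE pools, against -4.35 to -2.49 in control pools, a difference of 1.92. The ratio of fabp4 to cidec was 0.54 to 1.74 in MPLE pools, against -0.61 to 0.39 in control pools, a difference of 1.34. After normexp correction both ratios overlapped between the diets. Cidea and cidec were then at -0.40 and 1.48 in MPLE pool 2, against -0.74 and 0.88 in control pool 2. Fabp4 and cidec were at 1.67 and 1.48 in MPLE pool 2, against 2.55 and 2.11 in control pool 3. The ratio of fabp4 to cidec also overlapped on signals before detrending, described below. None of the 9 pairs could pass the threshold in this design. The 3 pairs that include thrsp overlapped between the diets, as did the ratio of fabp4 to cidea (-0.58, exact p of 0.4).

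Each array was scaled in turn by 5 rules, and the overlap of the diets was noted. Cidea and acsl1a did not overlap under 4 of 5, acaa2 and cpt1ab under 3 of 5, cidec under 1 of 5, and fabp4 and thrsp under 0 of 5. Centring on the spike-in probes lowered the median of all probes to -0.46, and against that shift it left cpt1ab at 0.29 and cidea at 0.64, both overlapping. The same rule gave more negative differences for acsl1a (-1.34), acaa2 (-1.27) and cidec (-1.28). The diets did not overlap there, and the limma adjusted p-values were 0.0726, 0.0726 and 0.0970. The rule takes a constant off each array, so these differences moved down by the same amount as those of cpt1ab and cidea. At an unadjusted p under 0.05 by limma stood 8242 of 23132 probes under this rule, against 4096 with the percentile scaling. The larger size thus reflects that shift and adds no further evidence for these genes. Normexp background correction gave smaller differences, at -0.37 for acsl1a, -0.52 for acaa2, 0.56 for cpt1ab and 0.62 for cidea. It was run on median signals, so it also left out the detrending described below, and it added an offset of 50. Its values thus cannot be credited to the background step alone. The signs of all 7 differences were the same under these 5 rules. With the series values as the authors deposited them, which carry no scaling between arrays, the differences of acsl1a, acaa2 and cidec turned positive.

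**Figure D3:**
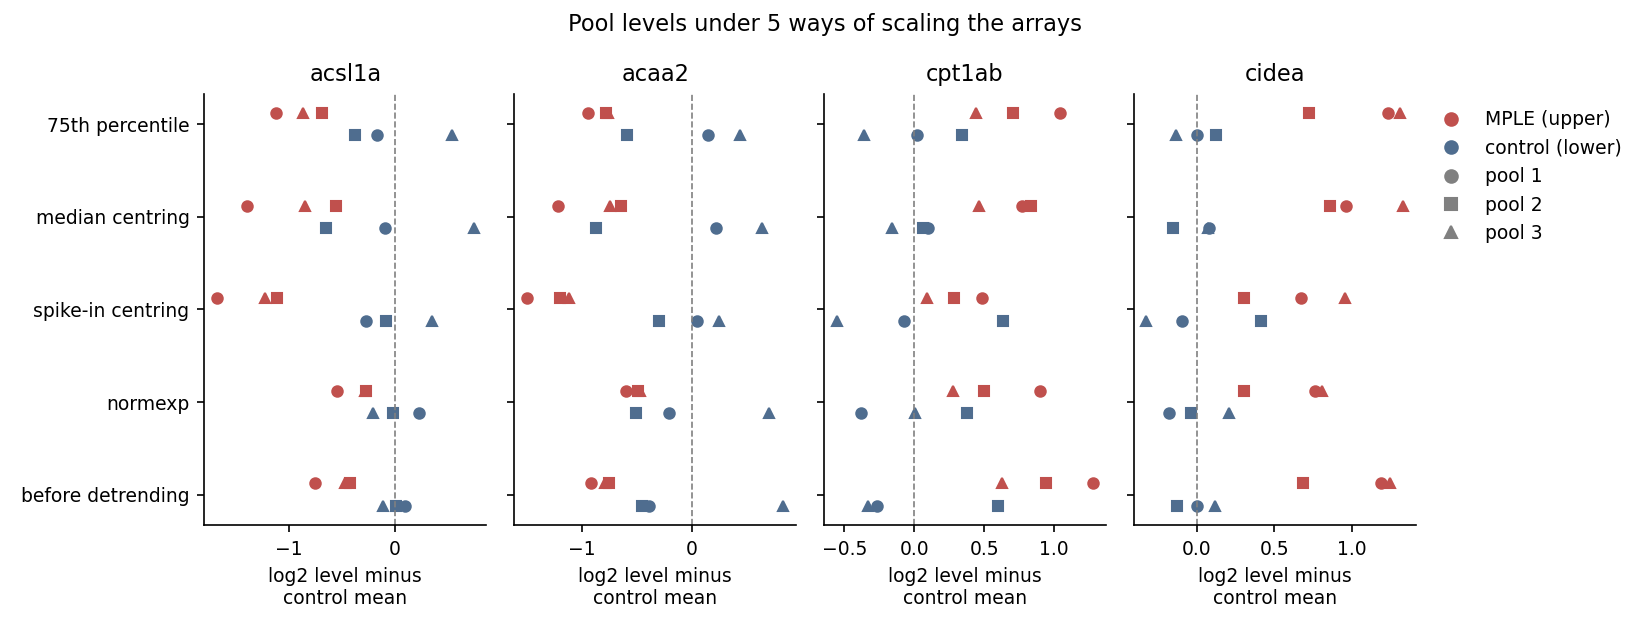
Log2 level of each pool minus the control mean (horizontal axes) for acsl1a, acaa2, cpt1ab and cidea under 5 ways of processing the arrays (rows). MPLE pools are in the upper line and control pools in the lower line of each row, with a mark shape for each pool number. The diets separate in 4 of 5 rows for acsl1a and cidea and in 3 of 5 for acaa2 and cpt1ab.

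Unscaled, the spots of cidec read 1018, 1257 and 1212 intensity units in the MPLE pools and 1066, 1081 and 958 in the control pools. Those of acsl1a read 922, 874 and 881 in the MPLE pools and 989, 1026 and 567 in the control pools. The 75th percentile, by contrast, was 710, 499 and 570 in MPLE pools 1 to 3 and 394, 470 and 138 in control pools 1 to 3, so that control pool 3 was the dimmest array and its scaled values were raised most. Cidea read 623, 308 and 528 in the MPLE pools and 148, 192 and 47.1 in the control pools. No control array reached the 75th percentile of the dimmest MPLE array. A gene at an equal scaled level would therefore also read higher in MPLE pools when unscaled. The direction of the unscaled cidea values thus cannot tell a change of the gene apart from the brightness of the arrays.

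The scanner software also detrends each array, multiplying spots by a factor that depends on position. Over the spots of the members this factor stayed between 0.859 and 1.16 on the MPLE arrays. It was 0.842 to 1.58 on control pool 1, 0.885 to 1.01 on control pool 2 and 0.62 to 2.17 on control pool 3. The spread of the spike-in probes after processing was 5.47% to 7.0% on MPLE arrays and 6.47% to 29.4% on control arrays, the last in control pool 3. For acsl1a in control pool 3 the factor was 2.17, and scaled signals before detrending gave its difference as -0.55. For fabp4 in control pool 3 it was 0.62, and its difference before detrending was 0.24. Acaa2 (-0.82) and cidea (1.04) were little moved, and cpt1ab was 0.95. The 6 arrays were on 6 slides, no position on the slide held arrays of both diets, and every MPLE array was scanned after the last control array. Diet thus cannot be told apart from slide, position on the slide or the order of scanning.

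**Figure D4:**
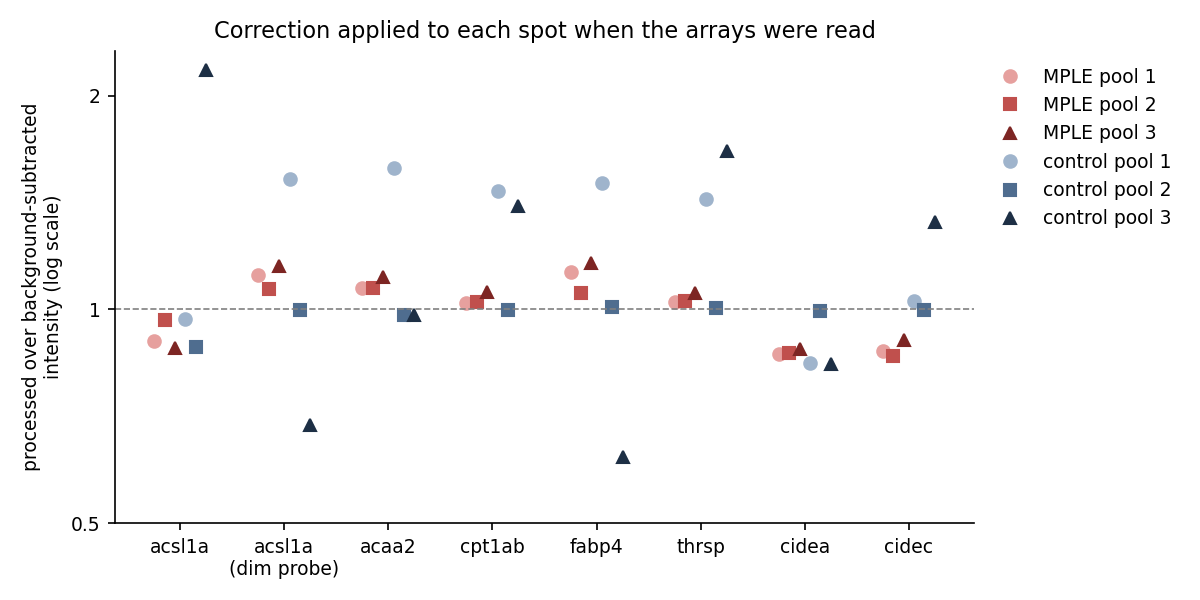
Detrending factor, the processed over the background-subtracted intensity (vertical axis, log scale), for each of the 8 probes (horizontal axis) on the 3 MPLE arrays in red and the 3 control arrays in blue. The factors of the MPLE arrays lie between 0.859 and 1.16, while those of control pool 3 reach from 0.62 to 2.17.

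The wider pathway lists were counted in the same fit. Of 34 oxidation genes on the array, 31 were tested, and 0 passed the adjusted threshold. At an unadjusted p under 0.05 were 2 higher and 3 lower of these 31. Of all 15509 genes 10.4% were higher and 5.18% lower, 15.6% in all, so only the total of both directions stood near that share. Without the members, 1 of 28 genes was higher and 1 lower. The median difference of the list was -0.13, against -0.02 over all genes. Besides the members, the genes at that level were cratb, a carnitine acetyltransferase, and oxct1a, an enzyme of ketone body use. Cratb was at 2.99, 2.95 and 2.86 in the MPLE pools, against 1.84, 1.68 and 1.47 in the control pools, a difference of 1.27 with an adjusted p of 0.0723 by limma. Oxct1a differed by -0.59 (limma adjusted p of 0.280). Cpt1b, which encodes a further form of the carnitine transferase, differed by -0.08 (0.04 before detrending), and cpt2, the inner membrane enzyme, by -0.58 with overlapping diets.

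Fatty acid synthesis had 11 tested genes of 16 and a median of 0.13. At an unadjusted p under 0.05, 1 was higher and 0 lower, beside 10.4% higher and 5.18% lower of all genes. The higher one was elovl4, which lengthens very long fatty acids, with a difference of 2.64 (limma adjusted p of 0.119). Its probe was above background on 1 of 3 control arrays, so it entered the test through the MPLE arrays and its size is not well measured. Among the 9 genes above background on all 6 arrays, 0 were at that level by limma. Hsd17b12b, of the same elongation cycle, differed by -0.88 with overlapping diets, while hacd3 (0.36) and pgd (0.37) turned negative under spike-in centring, and pgd also under quantile normalization. The spike-in rule also turned the list's median to -0.31, with all genes at -0.47. The list of triglyceride synthesis and droplets had 11 tested genes of 15, of which only cidea met that level, and a median of -0.07. Lipea, a hormone-sensitive lipase, differed by -1.19 with overlapping diets and a limma adjusted p of 0.315. Lipe, the list's other gene for such a lipase, differed by -0.20, also with overlapping diets. Lpin2, a phosphatidate phosphatase, differed by -0.49 (limma adjusted p of 0.362), and gpam by 0.21, which turned negative under spike-in centring, normexp and without detrending.

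Binding and uptake of fatty acids had 8 tested genes of 13. Of these, 7 differed in the positive direction, 2 at an unadjusted p under 0.05, with a median of 0.69. Of all 15509 genes tested, 7551 differed in the positive direction and 10.4% were higher at that level. The direction of the list's median was the same under the 5 processing rules. Lmf1, fabp2 and apoc1 were above background on 2 of 3 control arrays and entered the test through the MPLE arrays, where lmf1 and fabp2 are high. Over the 5 genes above background on all 6 arrays the median was 0.51, with 1 gene at that level. The median of all such genes was -0.12, and 7.19% of them were higher at that level. Apoeb, an apolipoprotein, differed by 0.95 (limma adjusted p of 0.132) and lmf1, a lipase maturation factor, by 1.59 (limma adjusted p of 0.195). Fabp2, a second fatty acid binding protein, differed by 1.48 (limma adjusted p of 0.349) and cavin1, a caveola protein, by 0.87 (limma adjusted p of 0.361). Among regulators, 12 of 17 were tested, with a median of -0.14. At an unadjusted p under 0.05, where 10.4% of all genes were higher, 3 regulators were higher. These were prkaa2, a catalytic subunit of AMP-activated kinase (1.99), the transcription factor cebpb (0.71) and the sterol regulator srebf2 (0.83), with limma adjusted p-values of 0.118, 0.215 and 0.224. The probes of prkaa2 and srebf2 were above background on 2 of 3 control arrays and entered the test through the MPLE arrays, which leaves cebpb as 1 of 9 regulators measured on all 6 arrays, with a median of -0.22. Srebf2 turned negative (-0.36) after normexp background correction. Srebf1, the regulator of fatty acid synthesis, differed by -0.59 and prkag1, another kinase subunit, by -0.69, both with overlapping diets.

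**Figure D5:**
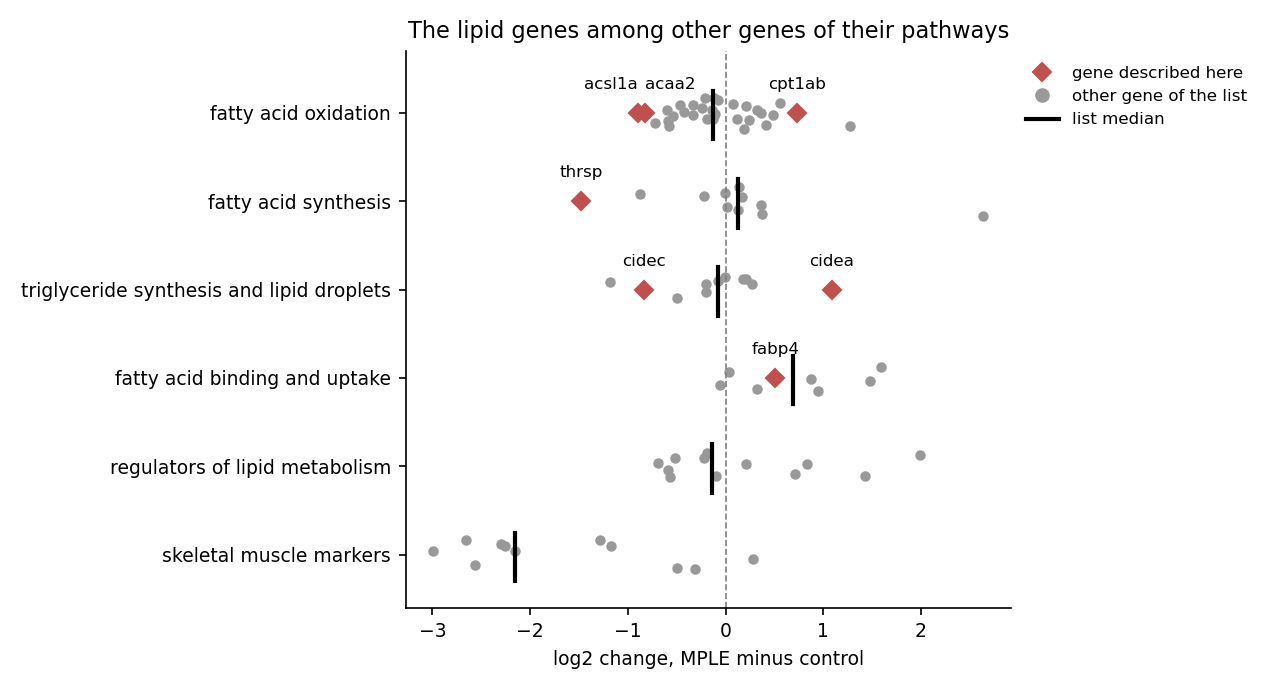
Difference between MPLE and control in log2 units (horizontal axis) for every tested gene of the 5 lipid lists and of the skeletal muscle markers (rows), with a line at the median of each list and the 7 genes described here as named diamonds. The medians of the lipid lists run from -0.14 for regulators to 0.69 for binding and uptake, a list that includes genes tested through the MPLE arrays alone, and that of the muscle markers is -2.16.

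Markers of other cells were read beside these genes. The skeletal muscle list had 7 of 11 tested genes lower and 0 higher at an unadjusted p under 0.05, where 10.4% of all genes were higher and 5.18% lower. Of the 7, ampd1 was above background on 2 of 3 MPLE arrays and entered the test through the control arrays. Among the 9 muscle genes above background on all 6 arrays, 6 were lower and 0 higher at that level. Of all such genes, 7.19% were higher and 5.63% lower. The summed level of the muscle list was 9.28 to 15.3 times the array percentile in MPLE pools, against 19.0 to 76.3 in control pools. It was highest in control pool 3, the pool where acsl1a, acaa2 and cidec were also highest. The sums of most lists were highest there, though not those of binding and uptake and of interrenal markers. The size of the step differed. Muscle was 76.3 there and at most 24.4 in the other pools, and kidney tubule genes 43.4 and at most 18.3. Oxidation was 246 there and at most 149 in the other pools, and blood forming and immune genes 277 and at most 270. Control pool 3 was the dimmest array, while cpt1ab (-1.21) and cidea (-1.55) were lowest there. Whether its dimness bears on these sums was not tested. Such a sum adds probes that bind differently and is set by the brightest. Ckmb made up 8.54% to 46.1% of the muscle sum. Without ckmb that sum was 8.22 to 13.3 in MPLE pools, against 15.0 to 41.2 in control pools. The muscle genes prvb, casq1b and ampd1 differed by -2.30, -2.57 and -2.66, with a limma adjusted p of 0.0747 for prvb. Ryr1a, another muscle gene, was above background on no array. The summed level of 12 of 13 adipocyte markers was 47.6 to 59.1 in MPLE pools, against 59.1 to 109 in control pools, but cebpa made up 58.7% to 69.4% of it, and without cebpa the diets overlapped at 17.0 to 24.1 in MPLE pools and 22.2 to 33.3 in control pools. Fabp4 and cidec are among those markers themselves, while adipoqb was above background on no array, and adipoqa on 2 MPLE arrays and 1 control array. The adipocyte marker cfd, complement factor D, was left out of that sum because its spot in MPLE pool 2 was an outlier, and it read 7.93 and 8.01 in MPLE pools 1 and 3, against 5.87, 6.53 and 4.80 in the control pools. With cfd the sum was 292 and 316 in MPLE pools 1 and 3, against 124 to 151 in the control pools, so the direction of the adipocyte sum depends on cfd. Of 9 tested adipocyte genes, 1 was higher and 0 lower at an unadjusted p under 0.05. At an unadjusted p under 0.05, 0 of 11 liver-type genes were higher and 1 was lower, and 2 of 5 kidney tubule genes were higher and 2 lower. Of 14 blood forming and immune genes, 3 were higher and 3 lower. Beside these counts stand the 10.4% higher and 5.18% lower of all genes. With the kidney tubule list held to the 2 genes measured on every array, 0 were higher and 1 was lower. The part of muscle or fat tissue in the members' values was not tested. Of 12 interrenal and chromaffin markers, which belong to this organ, 5 were above background on all 6 arrays. Among them star was at 7.28 to 7.45 in MPLE pools and 6.81 to 7.33 in control pools, while chga and cyp17a1 were above background on 1 array each and chgb on no array.

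For each member the named genes with the most similar pattern over the 6 arrays were sought among 4445 genes, as a description only, since all values share the same arrays and scaling. P4ha2 was nearest to acsl1a (Pearson r of 1.00) and pla2g15 to acaa2 (0.996). Mol1a was nearest to cpt1ab (0.980) and gins3 to cidea (0.972). Afg1lb was nearest to fabp4 (0.988), taf1b to cidec (0.998) and apoa2, an apolipoprotein, to thrsp (0.975, among 4446 genes). Apoa2 was at -2.86, 1.95 and 0.89 in the MPLE pools, against 0.94, 4.19 and 2.02 in the control pools, so it too was lowest in MPLE pool 1. Apoa2 is itself one of the liver-type markers.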

How the data were processed

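The 3 MPLE and 3 control pools, told apart by their titles, were each hybridised to 1 one-colour array. Spike-in RNA was added before Cy3 labelling, per the labels' protocols. Per the file headers, arrays of design 084881 were read with Feature Extraction 10.7.3.1, whose processed intensity has the background subtracted and a positional trend removed on each array, with no scaling from array to array. The authors' deposited series table holds log2 of the background-subtracted intensity, also unscaled, with a column median of 7.51 in MPLE pool 1, the highest, and 5.18 in control pool 3, the lowest. The series text speaks of a reference design, which differs from these one-colour files, and the files were followed.

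Log2 processed intensity minus each array's 75th percentile over 42438 spots was fitted with lmFit and eBayes of limma 3.58.1 under R 4.3.3, with diet as the only term, as a two-sided test adjusted by Benjamini-Hochberg over 23132 probes at a threshold of 0.05. Outlier spots were left out (6 to 205 per array, 0 saturated), spots of a probe averaged, and a probe was kept if either diet had it well above background on all of its arrays. Between 18046 and 33020 spots per array were well above background, and the number of arrays limits the precision. A gene was read at its tested probe with the highest mean signal. The model was tested on simulated data.

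Accessions of 25641 of 42386 probes matched RefSeq genes of assembly Ssal_v3.1, 8155 with a name. No source used here names the genome build of the probes, so no coordinates are printed, and sequences were not used here. The members, lists and alternatives were chosen with earlier results of these data known. Named were the 7 members and the nearest gene of each member. Of each lipid list the 5 genes with the smallest p or fewer were named, and 3 of each marker list at most. Cpt1b, cpt2, lipe, apoc1, ckmb, hpxb, hpxa, fgg, tfa, apoba, chga, chgb, cyp17a1, ryr1a, adipoqa and adipoqb were named after their values were seen. Pools are separate RNA samples, and p-values cover the spread of pools, arrays and labelling together. The scaling, background, filter, outlier, weighting, block, leave-one-out, probe and threshold alternatives include 2 added after seeing the data: signals before detrending, and a percentile without outlier spots. The normexp correction used median signals, which are not detrended, with an offset of 50.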

Additional observations from a re-analysis of the deposited data

How the results depend on the processing

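Over 22 alternatives, 147 of 153 member differences kept their direction and their side of the adjusted threshold. Alternatives that alter only the filter, variance, block, adjustment or threshold left each difference unchanged, so its direction could not turn there. With the unscaled deposited series values acsl1a was 0.53, acaa2 0.26 and cidec 0.50, all turned round, and with array weights thrsp was 0.082. Array weights, estimated from the arrays' own spread, brought acaa2 (-0.82, limma adjusted p of 0.0463) and cidea (1.19, limma adjusted p of 0.0377) past the threshold, so that 2 members passed. Cidea was positive under all 22 alternatives, from 0.62 to 2.11, with limma adjusted p-values from 0.0377 to 0.428, and cpt1ab from 0.29 to 2.02. The upper ends of both ranges came from the unscaled deposited series values. Averaging all probes of acsl1a gave -0.56, without control pool 2, where 1 probe was an outlier. Leaving out each pool gave acsl1a -1.08 to -0.62, acaa2 -1.12 to -0.60, cpt1ab 0.55 to 0.90, fabp4 0.22 to 0.74, thrsp -2.34 to -0.17, cidea 0.98 to 1.27 and cidec -1.14 to -0.34. The members at an unadjusted p under 0.05 by limma numbered 1 to 4 over those pools left out, where 2281 to 5370 of all probes were at that level. The number was also 1 with median centring and with normexp (3120 and 4145 of 23132 probes). It was 2 without the filter on dim probes (4166 of 42386) and before detrending (2643 of 23125), and 3 or 4 under the other alternatives. Thrsp had no value where only probes above background on all arrays were kept.

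The number of probes past the adjusted threshold, 79, moved more: 24 with quantile normalization, 537 with median centring, 14 with spike-in centring, 24 with normexp, 123 with outlier spots kept, 2048 with array weights, 25 adjusted over 1 probe per gene, 582 at a threshold of 0.1 and 2 before detrending. It was 0 by limma without the filter on dim probes (4166 at an unadjusted p under 0.05) and 0 with the deposited series values (3852). Leaving out 1 pool gave 0 to 161: 0 without any MPLE pool or control pool 1 (2281 to 5014 at an unadjusted p under 0.05), 161 when control pool 2 was left out and 135 when control pool 3 was. The pool number as a block gave 249, but the labels do not say what same-numbered pools share. Their deviations from the mean of their diet correlated at -0.18, -0.34 and 0.08, and no MPLE pool correlated best with its own number. With 3 pools per diet, these values cannot settle whether the numbers pair the pools. The block changed no call on a member at the adjusted threshold. At an unadjusted p under 0.05 by limma it kept acsl1a (0.048) and cidea (0.019) and brought in thrsp (0.017). Acaa2 (0.064) and cpt1ab (0.078) were no longer at that level. Of the lipid lists, with 0 genes past the threshold each, array weights gave 2 in oxidation, 1 in synthesis, 1 in triglycerides and droplets, 2 in binding and uptake and 1 in regulators. Median centring gave 1 in synthesis and 1 in regulators, and the threshold of 0.1 gave 1 in oxidation. The cause of these shifts was not tested.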
